A study of Homo sapiens with 8 samples.

Results

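The 44 genes described here are interferon-stimulated genes, chosen by symbol from the 57820 genes of each deposited table. The list spans the oligoadenylate synthetases (OAS), the IFIT, MX and IFITM families, the ISG15 conjugation enzymes, RNA-sensing helicases, interferon regulatory transcription factors and other antiviral effectors. Earlier results of the same libraries were in view when the list was drawn up, in particular the levels across the 4 groups, which are near 0 for many members in the siRNA libraries, and the comparison of MGA with Empty. Those levels are therefore given as a description, and nothing about the list is read from its count of calls in MGA. The cells were A549, an established human lung adenocarcinoma line. One experiment compared cells carrying an empty vector (Empty) with cells over-expressing MGA, a MAX-binding repressor that carries a T-box as well as a helix-loop-helix domain. The other compared A549 cells given an siRNA named siNC with cells given one against MYC (siMYC). There were 2 libraries, A and B, in each of the 4 groups. The sources used here do not give the vector's promoter, the time of harvest or the siRNA dose. They also do not say whether A and B are separate cultures, and every p-value is therefore relative to a spread that may be technical.

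Interferons are secreted proteins made when a cell's sensors detect foreign nucleic acid. Type I interferons (IFNB1 and the IFNA family) and type III interferons (the IFNL family) bind different receptors, yet both activate the kinases JAK1 and TYK2 and then STAT2, which joins IRF9 in a complex that binds the interferon-stimulated response element (ISRE) of its target genes. The products of these targets degrade viral RNA, block virus entry or budding, or raise the cell's own sensing, and airway epithelium is a well-known site of this response.

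RefSeq promoter windows (GRCh38.p14, 250 bases before to 50 after a start) were found for 36 of the 44 members, as 47 windows. The stretches shown are the 200 bases upstream of a start for 4 members that the results turn on: BST2 and OAS3, which fell with MGA, RSAD2, which rose, and IFIT1, which was called in neither direction. Capitals mark the ISRE core, which is GAAA, any 2 bases and GAAA again, on either strand, and in BST2 also the gamma-activated site (GAS), TTC, any 3 bases and GAA. All motifs were searched on both strands.
BST2 (chr19:17405631-17405830, minus strand): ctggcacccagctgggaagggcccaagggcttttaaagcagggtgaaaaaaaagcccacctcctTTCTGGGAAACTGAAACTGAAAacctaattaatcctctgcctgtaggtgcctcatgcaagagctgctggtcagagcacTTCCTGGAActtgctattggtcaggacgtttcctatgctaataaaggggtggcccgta
OAS3 (chr12:112938274-112938473, plus strand): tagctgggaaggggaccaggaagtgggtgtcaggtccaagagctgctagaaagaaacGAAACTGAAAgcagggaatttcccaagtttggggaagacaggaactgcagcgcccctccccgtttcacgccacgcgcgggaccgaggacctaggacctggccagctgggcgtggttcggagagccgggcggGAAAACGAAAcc
RSAD2 (chr2:6877577-6877776, plus strand): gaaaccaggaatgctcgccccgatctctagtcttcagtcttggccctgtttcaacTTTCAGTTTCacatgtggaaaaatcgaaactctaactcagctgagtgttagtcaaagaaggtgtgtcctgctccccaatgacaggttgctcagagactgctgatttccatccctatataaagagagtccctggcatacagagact
IFIT1 (chr10:89392423-89392622, plus strand): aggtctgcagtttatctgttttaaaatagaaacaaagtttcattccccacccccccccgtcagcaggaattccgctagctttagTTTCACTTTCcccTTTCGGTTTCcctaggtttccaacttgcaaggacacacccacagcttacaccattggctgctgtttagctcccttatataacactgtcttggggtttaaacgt

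BST2, OAS3 and IFIT1 each held 2 ISRE cores in the printed stretch, and RSAD2 held 1. Only windows with the core were printed, so its presence in these stretches was fixed by that choice. RSAD2 has another window, without the core as searched, that is not shown. In BST2 the 2 cores overlapped each other, and the first also overlapped 1 of its 2 GAS matches. Of the members called with MGA, BST2, OAS3, RSAD2 and DDX60L had the core in a window, OAS1, XAF1 and IRF1 had it in none, and OAS2 and MX2 were without an entry. Other spacings of the GAAA pair were not searched. The OAS1 window and a window of XAF1 hold GAAACGAAA, with 1 base between, so lack of the core as defined is not lack of an ISRE. Over the 47 full windows, the ISRE core was found in 29 (61.7%), belonging to 25 of the 36 matched members, against 3.57% of all 35116 windows. The GAS letters were found in 12 windows (25.5%) of 11 members, against 7.66% of all windows. The E-box CACGTG, the sequence bound by MYC-MAX and MGA-MAX pairs, was found in 3 windows (6.38%), those of HERC5, IRF9 and ISG20, against 7.26% of all. The T-box sequence AGGTGTGA was in none of the 47 windows and in 0.98% of all. Each match describes letters in a window and is not evidence of binding.

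Total expected counts ran from 820428 to 1176890 in the 4 vector libraries and from 1398805 to 2129006 in the 4 siRNA libraries. The labels were checked on the targeted genes. MGA stood at 122 and 81.5 CPM (TMM-normalised counts relative to library size) in Empty and at 102455 and 103732 in MGA, where it took 9.54% and 9.68% of all counts, and MYC fell from 219 and 183 CPM in siNC to 48.3 and 41.1 in siMYC. Of the epithelial markers, KRT8 and KRT18 were high in every library, while EPCAM had 0 or 1 counts in the vector libraries and 8 to 17 in the siRNA libraries. The 8 A549 and epithelial markers summed to 7161 and 7299 CPM in Empty, to 5704 and 5823 in MGA, and to between 14879 and 17129 in the siRNA libraries. The leukocyte markers PTPRC and CD3E were at 0 in all libraries.

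The members were abundant in both vector groups and scarce in both siRNA groups. Together they took 1.75% and 1.71% of counts in Empty A and B and 1.5% and 1.51% in MGA A and B, against 0.0547% and 0.0512% in siNC and 0.0580% and 0.0539% in siMYC. The vector and siRNA libraries do not overlap in this share. The MGA gene itself took 9.54% and 9.68% of counts in MGA A and B, which lowers the share of every other gene there. Of the 44, 43 passed the filter on low counts. EPSTI1 did not, with 2 counts in MGA A and 0 elsewhere. All 43 were higher in both Empty libraries than in both siNC libraries, an order held by 29.1% of the 11218 genes tested, and all 43 were higher in every vector library than in every siRNA library (15.5% of genes tested). Since passing the filter through the vector libraries and the choice of the list both fix this order, it is a description. The vector and siRNA libraries come from separate experiments, and the delivery of a vector, the handling of the cells and any other difference between the experiments cannot be told apart. Nor can fewer responding cells be told apart from less RNA per cell.

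**Figure D1:**
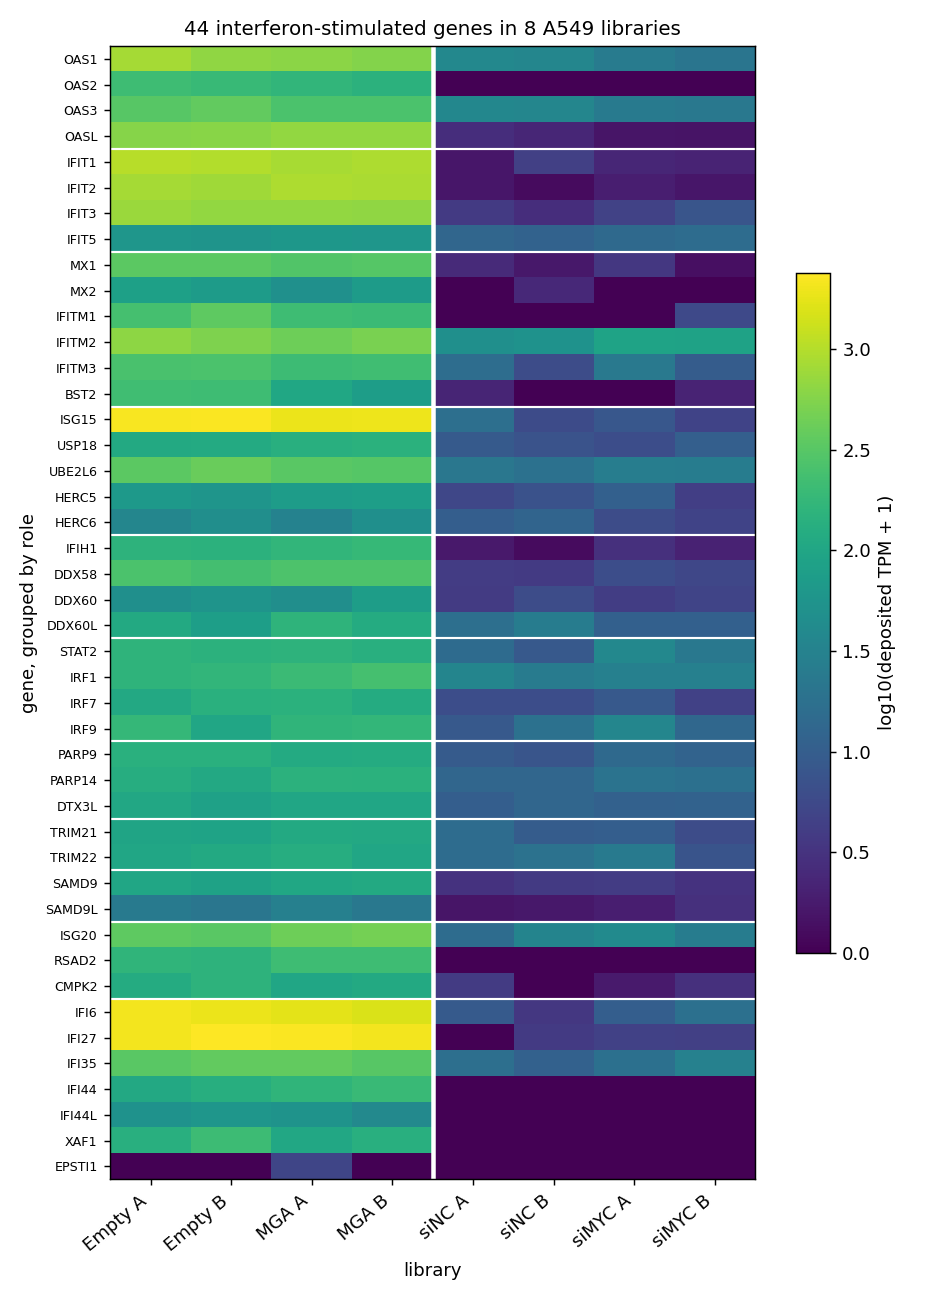
Level of the 44 members (rows, grouped by role between white lines) in each of the 8 libraries (columns), as log10(deposited TPM + 1) on the colour scale. Both Empty and both MGA columns are above the siRNA columns for the 43 tested members, of which 5 are at 0 in all 4 siRNA columns, and EPSTI1 is at 0 in all but MGA A.

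Compared per length, as TPM (the deposited unit corrected for gene length and depth), the highest mean in Empty was that of ISG15, a ubiquitin-like protein that is joined to other proteins during infection. ISG15 stood at 2256 and 2289.7 TPM in Empty, 1899 and 1997 in MGA, 16.3 and 4.84 in siNC, and 7.33 and 3.8 in siMYC. IFI27, a small mitochondrial protein gene, stood at 2112 and 2408 TPM in Empty and 2305 and 2094 in MGA, with 0 and 2.81 in siNC and 3.48 and 3.31 in siMYC. The next, IFI6, which encodes a membrane protein with antiviral activity, had 2073 and 1904 TPM in Empty, 1729 and 1568 in MGA, 8.16 and 2.56 in siNC, and 9.38 and 16.6 in siMYC. ISG15 and IFI27 did not differ beyond the spread of IFI27 in Empty, IFI27 had the higher mean in MGA, and each vector library lay far above each siRNA library for all 3 genes.

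IFIT1, which binds RNA lacking the host's cap methylation, followed at 1052 and 974 TPM in Empty, 873 and 927 in MGA, 0.61 and 3.4 in siNC, and 1.32 and 1.15 in siMYC. Its partner IFIT2 had 834 and 787 TPM in Empty, 921 and 906 in MGA, 0.62 and 0.25 in siNC, and 0.9 and 0.59 in siMYC. OAS1, an oligoadenylate synthetase that makes the messenger activating RNase L, had 836 and 657 TPM in Empty, 613 and 573 in MGA, 37.1 and 35 in siNC, and 24.6 and 19.5 in siMYC. IFIT2 and OAS1 were within 1 SD of OAS1 of each other in Empty. At the other end, SAMD9L, a relative of the antiviral factor SAMD9, was the least abundant tested member in Empty, at a mean of 21.6 TPM.

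The gap between the experiments ranged widely among the members. OAS2, RSAD2, XAF1, IFI44 and IFI44L had 0 counts in all 4 siRNA libraries, and 17 members had fewer than 10 counts in every siRNA library. Against a floor of 3 counts over the siNC group, OAS2 was at least 475-fold higher in Empty, RSAD2 at least 326-fold, XAF1 at least 232-fold, IFI44 at least 109-fold and IFI44L at least 88.1-fold. IFIT2, with 3 counts over siNC, had a ratio of 1926 (95% counting interval 659 to 9346), and MX1, also with 3, a ratio of 561 (192 to 2727). These intervals cover counting error only. Among better counted members, IFIT3 was 317 times and DDX58, the gene of the RNA sensor RIG-I, 87.0 times as high in Empty as in siNC. IFIT5, HERC6, IRF1 and DDX60L had the smallest ratios of the 43, at 5.36, 5.72, 5.96 and 6.42. IRF1 is a transcription factor known to be made without interferon as well. CD68, which carried most of the leukocyte marker sum, also differed: that sum was 203 and 193 CPM in Empty, 156 and 168 in MGA, 23.6 and 23.9 in siNC, and 45 and 51.5 in siMYC. Its part in the members' levels was not tested.

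The genes of the interferons themselves followed the same split. Of 21 interferon genes in the tables, 12 were at 0 in every library and 4 were counted well enough to test. IFNB1, the first type I interferon made by most non-immune cells, had 33 and 32 counts in Empty, 59 and 42 in MGA and 0 in all 4 siRNA libraries. IFNL1, a type III interferon, had 63 and 72 counts in Empty, 101 and 78 in MGA and 0 in the siRNA libraries. IFNL2 had 29 and 28 counts in Empty and 47 and 30 in MGA, and IFNL3 had 16 and 11 and then 28 and 22, with 0 in the siRNA libraries for both. IFNL2 and IFNL3 are near-identical copies between which the counting could divide reads, so their separate values are uncertain. Against the floor of 3 counts over siNC, Empty was at least 39.8-fold higher for IFNB1, 82.6-fold for IFNL1, 34.9-fold for IFNL2 and 16.5-fold for IFNL3. No IFNA gene had more than 1 count in any library.

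**Figure D2:**
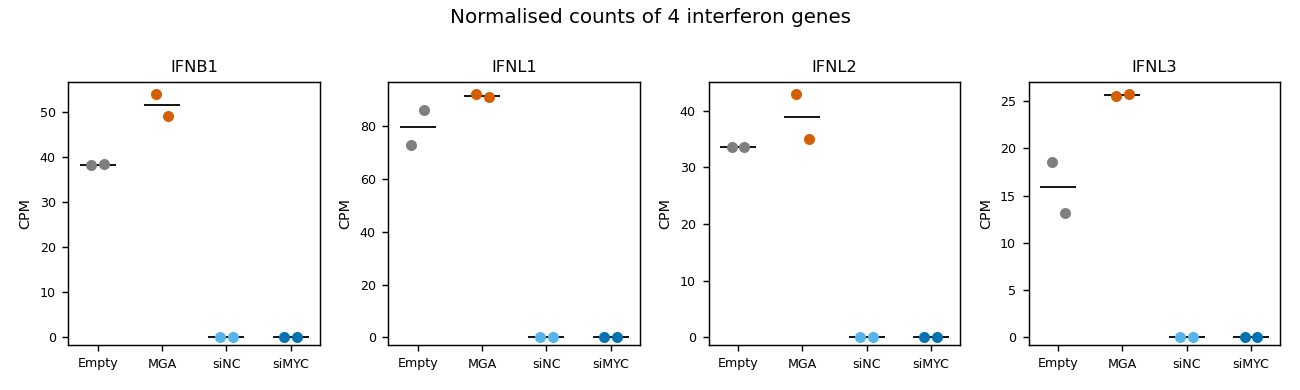
Normalised counts (CPM, linear axes that differ between panels) of IFNB1, IFNL1, IFNL2 and IFNL3 in the 4 groups. Points are libraries and lines are means over 2 libraries, and all 4 genes are at 0 in the siRNA libraries.

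With MGA, the interferon genes had log2 fold changes of 0.43 ± 0.25 (SE) for IFNB1, 0.20 ± 0.18 for IFNL1, 0.23 ± 0.29 for IFNL2 and 0.69 ± 0.39 for IFNL3, and none was called (adjusted p = 0.325, 0.55, 0.707 and 0.313). On the CPM scale both MGA libraries lay above both Empty libraries for all 4 genes, though narrowly for IFNL1 and IFNL2. Groups without overlap, in either direction, were found for 52.6% of all genes tested. The receptors tested were not called either. In the signalling list, which holds kinases, transcription factors and negative regulators beside the members, 17 of 19 genes were tested. With MGA, 1 of them fell (background 4%) and 1 rose (background 4.96%), which was SOCS3. SOCS3, a feedback inhibitor of JAK signalling, had 146 and 115 CPM in Empty and 225 and 236 in MGA, a log2 fold change of 0.82 ± 0.14 (adjusted p = 0.000282). Both MGA libraries were above both Empty libraries.

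Among the members, MGA over-expression was accompanied by small shifts in both directions. Of 43 tested, 9 passed an adjusted p of 0.05 (edgeR's quasi-likelihood test, adjusted over 11218 genes), which is 20.9% of the members against 8.96% of all genes tested. Lower with MGA were 6 members (background 4%): OAS1, OAS2, OAS3, MX2, BST2 and XAF1. Higher were 3 (background 4.96%): RSAD2, DDX60L and IRF1. The median log2 fold change was -0.10 over the 43 members and 0.01 over all genes, with 18 point estimates above 0 and 25 below. Groups did not overlap for 34 of 43 members, an outcome found for 52.6% of all genes tested. Of the 8 A549 and epithelial markers, 3 were also lower with MGA and none higher, namely AKR1B10, AKR1C1 and ALDH1A1, and the median of the 8 was -0.41; their part in the members' changes was not tested.

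The count of 9 depended on the fit. It was between 3 and 4 when 1 vector library was left out, 3 with DESeq2 (OAS2, OAS3 and BST2), 0 with limma on log2(TPM + 1), 14 with library sizes alone as scaling and 16 in a fit of the 4 vector libraries alone. The last 2 fits called 9.99% and 14.3% of all their genes. Scaling by library size alone also moved the median of all genes from 0.01 to -0.12 on the log2 scale and turned the split of all called genes from 556 higher and 449 lower to 300 higher and 821 lower.

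**Figure D3:**
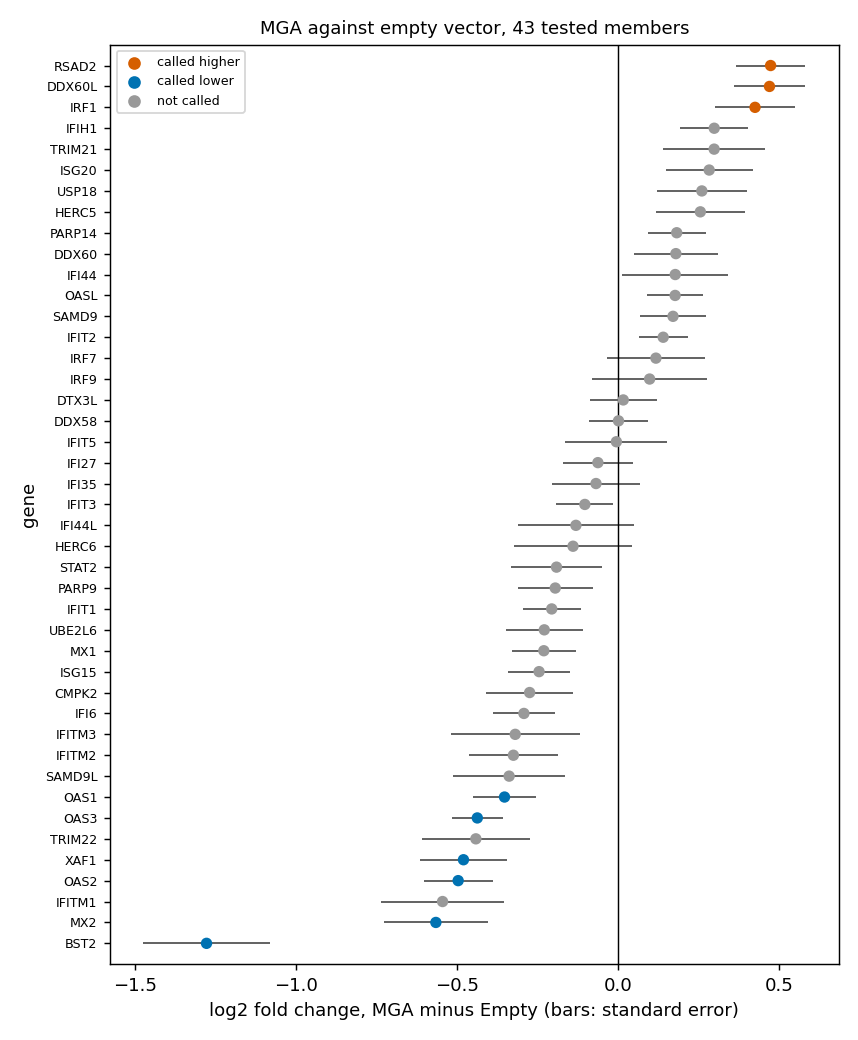
Log2 fold change of MGA against Empty for the 43 tested members (points, with standard errors as bars), coloured by call and ordered by value. BST2 stands apart at -1.28, and the other 42 lie between -0.57 and 0.47.

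Whether the counting used strand is not given in the sources used here, and in a GENCODE annotation 13 of the 44 members overlap another protein-coding gene, such as RSAD2 with CMPK2, and 23 overlap a gene of any kind, such as OAS1, OAS2 and OAS3 with 1 antisense gene. Values of these members may hold reads of the overlapping gene. Some overlaps lie on the same strand, such as IRF9 with AL136295.5 and IFITM1 with IFITM2, and counting by strand would not separate those.

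The oligoadenylate synthetases sense double-stranded RNA. OAS3, the largest of them, had 1346 and 1396 CPM in Empty and 1013 and 1013 in MGA, a log2 fold change of -0.44 ± 0.08 (adjusted p = 0.000548). OAS2 had 463 and 452 CPM in Empty and 338 and 309.6 in MGA, a change of -0.50 ± 0.11 (adjusted p = 0.0035). OAS1 had 771 and 652 CPM in Empty and 554 and 562 in MGA, a change of -0.35 ± 0.10 (adjusted p = 0.021). Both MGA libraries were below both Empty libraries for each of these 3 genes, which lie next to each other on chromosome 12. OASL, a relative that has lost the enzymatic activity and lies elsewhere on that chromosome, had 697 and 739.9 CPM in Empty and 809 and 815 in MGA, a change of 0.18 ± 0.09 that was not called (adjusted p = 0.226). The OAS3 call held without each vector library in turn. That of OAS2 was lost without Empty A (adjusted p = 0.0519) or MGA B (0.0724), and that of OAS1 without Empty A (0.34), MGA A (0.175) or MGA B (0.121).

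BST2, or tetherin, a membrane protein that holds budding virus particles on the cell surface, moved the most. Its CPM was 122 and 116 in Empty and 55.7 and 40.9 in MGA, a log2 fold change of -1.28 ± 0.20 (adjusted p = 6.77e-05). The groups were far apart, and the call held without each vector library in turn. MX2, a GTPase that restricts viruses at the nuclear pore, had 129 and 143 CPM in Empty and 95.8 and 86.5 in MGA, a change of -0.57 ± 0.16 (adjusted p = 0.0255). Its groups did not overlap, but the call was lost without Empty A (adjusted p = 0.0764), Empty B (0.2), MGA A (0.0971) or MGA B (0.176). The other 4 members of this class, MX1 and the entry inhibitors IFITM1, IFITM2 and IFITM3, were not called. MX1 had 522 and 560.0 CPM in Empty and 474 and 447 in MGA, a change of -0.23 ± 0.10 (adjusted p = 0.156). IFITM2 had 176 and 157 CPM and then 125 and 143, a change of -0.32 ± 0.14 (adjusted p = 0.153). The 6 point estimates of the class ran from -1.28 to -0.23. IFITM1, IFITM2 and IFITM3 are close copies, so their separate values are uncertain.

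XAF1, an interferon-induced gene linked to apoptosis, had 218 and 229 CPM in Empty and 144 and 179 in MGA, a log2 fold change of -0.48 ± 0.14 (adjusted p = 0.0248). The groups did not overlap, but the MGA libraries differed from each other more than the Empty libraries did. The call was lost without Empty A (adjusted p = 0.107), Empty B (0.181) or MGA A (0.365).

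The 3 members that rose have different roles. RSAD2, or viperin, makes a nucleotide analogue that stops viral polymerases. It had 316 and 312 CPM in Empty and 442 and 429.9 in MGA, a log2 fold change of 0.47 ± 0.11 (adjusted p = 0.0052). CMPK2, its neighbour on chromosome 2 and a nucleotide kinase, had 191 and 201 CPM in Empty and 156 and 169 in MGA, a change of -0.27 ± 0.13 (adjusted p = 0.227). The libraries did not overlap for either gene, and the point estimates of the pair differed in sign, a difference between genes that was not tested. DDX60L, a helicase-like antiviral protein, had 323 and 273 CPM in Empty and 412 and 415 in MGA, a change of 0.47 ± 0.11 (adjusted p = 0.00695). IRF1, a transcription factor that turns on part of the response without STAT2, had 175 and 181 CPM in Empty and 226 and 254 in MGA, a change of 0.43 ± 0.12 (adjusted p = 0.027). Both MGA libraries lay above both Empty libraries for DDX60L and IRF1. The RSAD2 call was lost without Empty A (adjusted p = 0.0581), Empty B (0.0753) or MGA A (0.0746), and that of DDX60L without Empty B (0.179), MGA A (0.0673) or MGA B (0.0582). That of IRF1 was lost without Empty A (0.18), Empty B (0.132), MGA A (0.0667) or MGA B (0.232). Scaling by library sizes alone ended the DDX60L and IRF1 calls, and upper-quartile scaling that of IRF1.

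**Figure D4:**
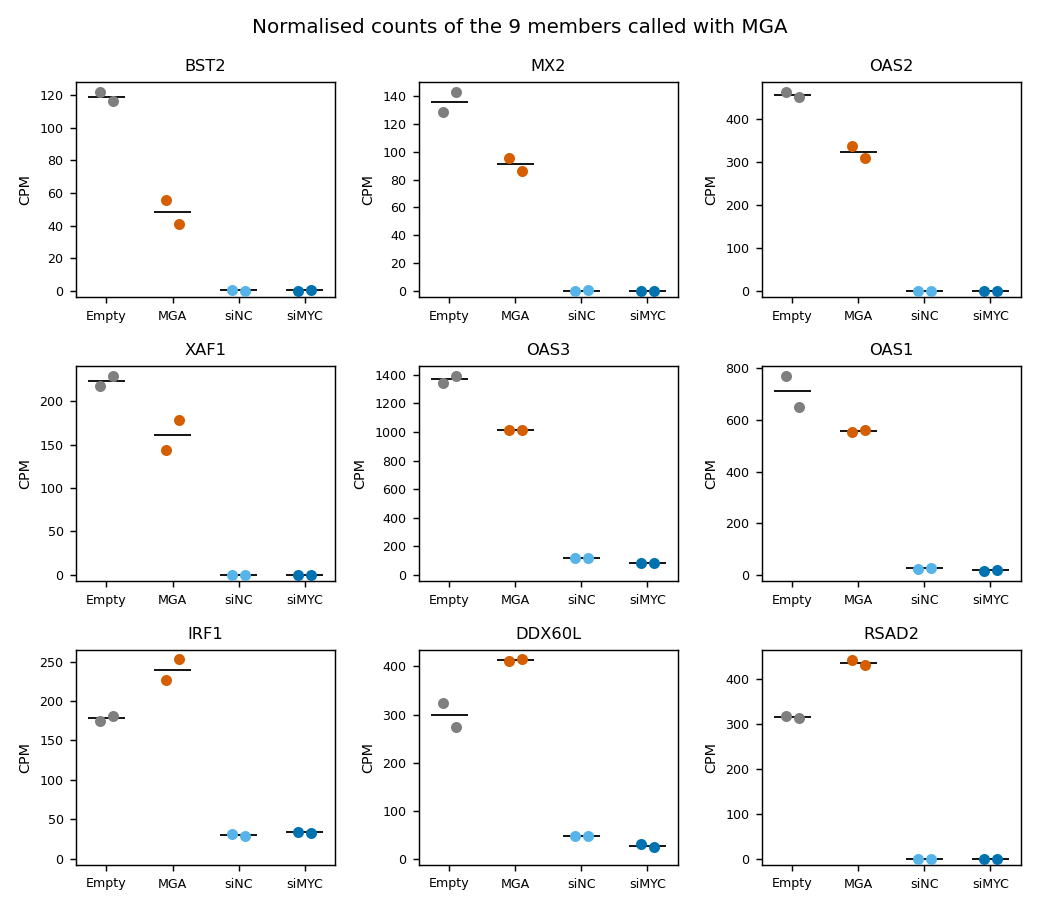
Normalised counts (CPM, linear axes that differ between panels) of the 9 members called in MGA against Empty, with points for libraries and lines for means over 2 libraries. Both MGA points lie on 1 side of both Empty points in every panel.

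The remaining 34 tested members were not called with MGA, which at this depth does not show that they were equal. Among them were all 5 members of the ISG15 system, which comprises ISG15, its E2 enzyme UBE2L6, the ligase HERC5, the related HERC6 and the protease USP18 that removes ISG15. Their log2 fold changes ran from -0.25 to 0.26. ISG15 itself had 747 and 758 CPM in Empty and 623 and 647 in MGA, a change of -0.25 ± 0.10 (adjusted p = 0.114). HERC5 had 133 and 133 CPM in Empty and 156 and 162 in MGA, a change of 0.26 ± 0.14 (adjusted p = 0.278). Their groups did not overlap, and neither passed the threshold.

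The 4 IFIT genes had changes between -0.21 and 0.14. IFIT1 stood at 1209.8 and 1143 CPM in Empty and at 994 and 1048 in MGA, a change of -0.21 ± 0.09 (adjusted p = 0.163), and IFIT2 stood at 1882 and 1828 and then 2063 and 2026, a change of 0.14 ± 0.08 (adjusted p = 0.28). Of the other helicases, DDX58 was at 0.00 ± 0.09 and IFIH1, the gene of the sensor MDA5, at 0.30 ± 0.11 (adjusted p = 0.0766). STAT2, IRF9 and IRF7, the factors that carry and amplify the interferon signal, had changes of -0.19 ± 0.14, 0.10 ± 0.18 and 0.12 ± 0.15. Thus none of these 3 factors was called, while IRF1 was.

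PARP14, an ADP-ribosyltransferase, had 656 and 601 CPM in Empty and 698 and 730.2 in MGA, a change of 0.18 ± 0.09 (adjusted p = 0.234), and the neighbouring partner genes PARP9 and DTX3L had -0.19 ± 0.12 and 0.02 ± 0.10. TRIM22, a ubiquitin ligase, had 144 and 193 CPM and then 118 and 131, a change of -0.44 ± 0.17 (adjusted p = 0.101), and TRIM21, a cytosolic antibody receptor, a change of 0.30 ± 0.16. SAMD9 had 461 and 407 CPM and then 474 and 505, a change of 0.17 ± 0.10 (adjusted p = 0.337), and SAMD9L a change of -0.34 ± 0.17. None of these genes passed the threshold. Within each of the pairs PARP9 and DTX3L, TRIM22 and TRIM21, and SAMD9 and SAMD9L, the point estimates differed in sign. ISG20, an RNA exonuclease, had a change of 0.28 ± 0.13 (adjusted p = 0.211). The abundant IFI6 and IFI27 had changes of -0.29 ± 0.10 (adjusted p = 0.0575) and -0.06 ± 0.11. IFI35, IFI44 and IFI44L lay between -0.13 and 0.18.

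Beyond the members, 40 of 45 further interferon-induced genes in the tables were tested, and MGA raised 5 (background 4.96%) and lowered 3 (background 4%) of them. TRIM34, a ubiquitin ligase gene, had 34 and 25 counts in Empty and 11 and 6 in MGA, a log2 fold change of -1.99 ± 0.39 (adjusted p = 0.00126). With siMYC it was called in the other direction, at 23 and 19 counts against 0 and 1 in siNC (adjusted p = 1e-05). The tables also hold a read-through gene model, TRIM6-TRIM34, between which and TRIM34 the counting could divide reads, so these values are uncertain. The SP100 nuclear body protein gene rose by 0.72 ± 0.11 on the log2 scale, from 249 and 235 CPM to 391 and 405 (adjusted p = 0.000108). LGALS3BP, a secreted glycoprotein gene, changed by -0.48 ± 0.09, from 1129 and 1276 CPM to 844 and 879.7 (adjusted p = 0.000409). The groups did not overlap for either. Among 20 tested sensors and adapters, MGA lowered 1 and raised none: SAMHD1, a nucleotide hydrolase that starves viruses of DNA precursors, went from 211 and 203 CPM to 139.6 and 91.1, a log2 fold change of -0.81 ± 0.15 (adjusted p = 0.00075). Both MGA libraries were lower, though they differed widely from each other.

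Knockdown of MYC was compared with siNC at the low levels that the members had in those cells. Of 43 tested members, 5 were called, 3 higher (background 19%) and 2 lower (background 20%), or 11.6% of the members against 39% of all genes tested. Of the 43, 24 had fewer than 10 counts in at least 1 siRNA library, where small changes are not detectable, and OAS2, RSAD2, XAF1, IFI44 and IFI44L, at 0 in all 4 siRNA libraries, could not be compared. Among the 19 members with 10 or more counts in every siRNA library, 4 were called (21.1%), 2 in each direction. Of the 9971 genes that met the same minimum, 40.8% were called. The minimum does not match those genes to the members in level, and many members were near it, so the lower share is not read as a result. Their median log2 fold change was 0.16, beside -0.01 over those 9971 genes.

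The members that rose were parts of the interferon signal's own machinery and a restriction factor. STAT2, the subunit that brings the activating domain to the ISRE-binding complex, had 22.1 and 11.7 CPM in siNC and 46.9 and 32.5 in siMYC, a log2 fold change of 1.30 ± 0.25 (adjusted p = 0.000132). IRF9, its DNA-binding subunit, had 5.0 and 5.25 CPM in siNC and 16.5 and 9.82 in siMYC, a change of 1.39 ± 0.37 (adjusted p = 0.00369). IFITM2 had 15 and 16.9 CPM in siNC and 24.8 and 25.8 in siMYC, a change of 0.65 ± 0.24 (adjusted p = 0.0315). Both siMYC libraries were above both siNC libraries for all 3, with siMYC A higher than siMYC B for STAT2 and IRF9. The STAT2 call held without each siRNA library in turn. That of IRF9, which rests on 7 and 9 counts in siNC and 36 and 16 in siMYC, was lost without siMYC A (adjusted p = 0.167), and that of IFITM2 without siNC A (0.14), siNC B (0.0926), siMYC A (0.0899) or siMYC B (0.0889). With the counts of IFITM1, IFITM2 and IFITM3 summed, a choice made after seeing the data, the change was 0.68 (adjusted p = 0.0123).

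OAS3 and DDX60L were the members that fell. OAS3 had 117 and 115 CPM in siNC and 85.9 and 82.8 in siMYC, a log2 fold change of -0.46 ± 0.12 (adjusted p = 0.00223). DDX60L had 47.2 and 46.1 CPM in siNC and 30.3 and 23.3 in siMYC, a change of -0.77 ± 0.19 (adjusted p = 0.00189). The groups did not overlap for either gene, and both calls held without each siRNA library in turn. The OAS3 call also held in every other alternative run. DDX60L overlaps the gene PALLD in a GENCODE annotation, and PALLD had a change of 0.60 (adjusted p = 1.28e-05) with siMYC. The part of PALLD reads in the DDX60L values was not tested.

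**Figure D5:**
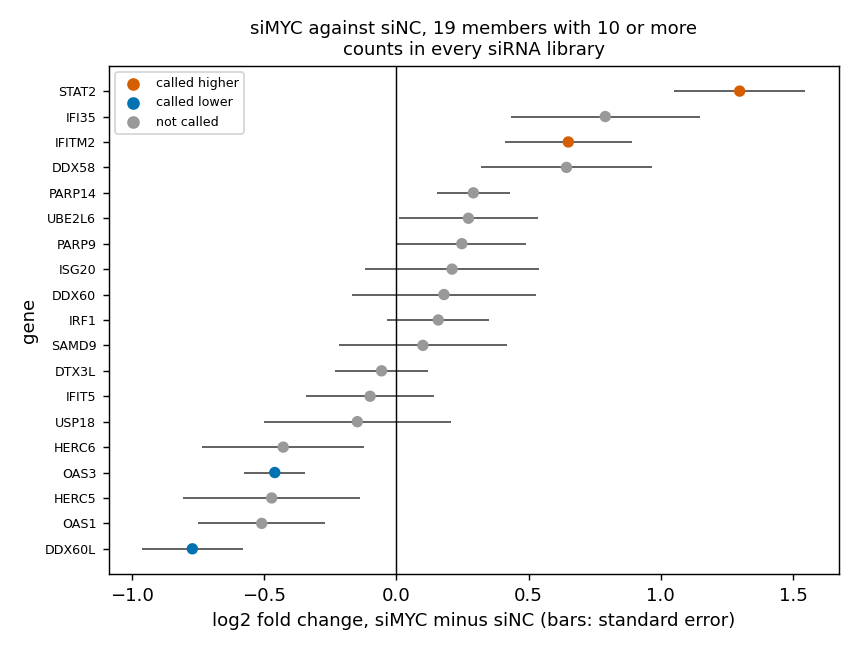
Log2 fold change of siMYC against siNC for the 19 members with 10 or more counts in every siRNA library (points, with standard errors as bars), coloured by call. STAT2 and IFITM2 are called higher and OAS3 and DDX60L lower, and IRF9 is not shown because 2 of its libraries had fewer than 10 counts.

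The other 15 well-counted members were not called. OAS1 had 24.3 and 24.5 CPM in siNC and 14.7 and 20.3 in siMYC, a log2 fold change of -0.51 ± 0.24 (adjusted p = 0.0954), with both siMYC libraries below both siNC libraries. IRF1, at 30.7 and 29.2 CPM in siNC and 34 and 32.5 in siMYC, had a change of 0.16 ± 0.19. PARP14 had 60 and 63.6 CPM and then 78.6 and 72.4, a change of 0.29 ± 0.14 (adjusted p = 0.0975). In the pathway around the members, 1 of 5 tested receptor genes rose: IL10RB, the shared subunit of the IFNL receptor, at 20 and 15.7 CPM in siNC and 51 and 45.4 in siMYC, a change of 1.45 ± 0.21 (adjusted p = 2.47e-06). Of all genes tested, 19% were called higher and 20% lower with siMYC. The signalling list had 5 of 17 genes higher and 1 lower, and the sensors and adapters 3 of 20 higher and 1 lower. The further interferon-induced genes had 4 of 40 higher and 5 lower. Among those last 5 was LY6E, a membrane protein gene, at 75 and 77 CPM in siNC and 23 and 30.1 in siMYC, a change of -1.54 ± 0.18 (adjusted p = 1.11e-07). The groups did not overlap for IL10RB or LY6E.

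Whether the members answered MGA and siMYC differently was tested by the difference between the log2 fold changes. Of 43 members, 4 passed (9.3%, against 18.5% of all genes tested), 1 higher (background 10.3%) and 3 lower (background 8.22%). OAS2, RSAD2, XAF1, IFI44 and IFI44L, at 0 in all siRNA libraries, could not pass this test, and other members scarce there had little chance to, so the share is not read against that of all genes. DDX60L was raised with MGA and lowered with siMYC, a difference of 1.24 ± 0.22 (adjusted p = 0.00019). STAT2 differed the other way, by -1.49 ± 0.29 (adjusted p = 0.000492): it was higher with siMYC and not called with MGA. IRF9 differed by -1.29 ± 0.41 (adjusted p = 0.0289) and IFITM2 by -0.98 ± 0.28 (adjusted p = 0.0136), both called higher with siMYC alone. For OAS3, which was lower in both comparisons, the difference was 0.02 ± 0.14 (adjusted p = 0.935). The IRF9 difference was lost without each library in turn except siMYC B (adjusted p between 0.0511 and 0.31), and that of IFITM2 without Empty A (0.0566), MGA A (0.0645) or siNC A (0.055). Those of DDX60L and STAT2 held without each of the 8 libraries.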

How the data were processed

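Poly(A)-selected RNA from A549 cells was sequenced in 8 libraries, 4 groups of 2. Per the submitters' processing notes, reads were processed with STAR and RSEM on hg19, with versions, annotation and strandedness not given in the sources used here. Per gene, the authors deposited expected counts, TPM and FPKM, per the file headers; expected counts divide reads that fit several genes, TPM and FPKM correct for length and depth, and FPKM was not used.

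Expected counts were rounded, filtered (filterByExpr, minimum count 10, minimum total 15), TMM-scaled and fitted jointly with edgeR 4.0.16 under R 4.3.3 (quasi-likelihood F test, two-sided, 4 residual degrees of freedom), with Benjamini-Hochberg adjustment over 11218 genes and calls at 0.05. The standard error is the size of the log2 fold change over the square root of F. CPM is the TMM-scaled count relative to library size. The procedure was also run on simulated counts with the same spread for all genes and groups. That setting differs from these data, and no result here rests on it. Replicates differed by more than sampling noise (chi-square per degree of freedom 1.12 to 1.86), so all 8 libraries were kept. Totals of 820428 to 2129006 counts per library limit the precision for low genes, and intervals cover counting error only.

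The members, roles and pathway lists were chosen with earlier results of these data known. Members called in any contrast, the 6 highest by mean TPM and the leader of each family were named. Their values are given for the libraries of at least 1 of the 2 experiments, and not always for all 8. Of the pathway lists, at most 6 called genes per list and contrast by smallest p could be named, and some are. Alternatives were other size factors, the MGA gene removed, no filter, DESeq2 1.42.0, limma 3.58.1 on log2(TPM + 1) or log2(TPM + 0.1), each experiment alone, a replicate block, and leaving out each library. Some results of the pathway and marker lists are not reported here.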

Additional observations from a re-analysis of the deposited data

Results flagged for a closer look

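4 members differed between the MGA and siMYC responses by the test of the difference itself (edgeR, adjusted p of 0.05 over all genes tested). The log2 fold change with MGA minus that with siMYC was 1.24 for DDX60L, -0.98 for IFITM2, -1.29 for IRF9 and -1.49 for STAT2. IRF9 rests on 7 and 9 counts in siNC, against 75 and 68 in Empty. Vector and siRNA libraries differ in depth and in the level of all 4 genes, and the part of either in these differences was not tested.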

How the results depend on the processing

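With 2 libraries a group, calls near the threshold moved with the fit, and no named gene changed direction in an alternative where it was called there or in the reported fit. The 9 members called with MGA became 14 with library sizes alone, 16 with only the 4 vector libraries, 3 with DESeq2, 0 with each of the 3 limma fits on TPM, and 3 to 4 without 1 library. The 5 called with siMYC became 2 on log2(TPM + 1), 3 on log2(TPM + 0.1), 2 on TPM with no filter, and 4 to 5 without 1 library. The 4 that differed between responses became 2 with DESeq2, 1 on log2(TPM + 1), 1 on log2(TPM + 0.1), 0 on TPM with no filter, and 2 to 5 without 1 library. The cause was not tested.

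Over all genes, the 1005 calls with MGA became 358 with DESeq2, 71, 80 and 40 in the 3 TPM fits and 402 to 474 without 1 library. The 4370 with siMYC became 1971, then 947, 934 and 837, and 3299 to 3847. The 2076 differences became 827, then 196, 182 and 134, and 1309 to 1937.

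A and B share only a letter across groups (correlation of A minus B over genes -0.0212 between Empty and MGA and 0.133 between siNC and siMYC). With a replicate block, 13 members were called with MGA (10.5% of all genes), 5 with siMYC (41.5%) and 4 for the difference (20.4%). For single named genes, 1211 values kept their side of the threshold, 22 gained a call and 202 lost one. Direction was compared only where the gene was called in the alternative or in the reported fit.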
